A study of Homo sapiens with 6 samples.

Results

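The clustered protocadherins are adhesion proteins of the cadherin superfamily whose genes lie side by side in 3 clusters, alpha, beta and gamma, on chromosome 5. The 55 members were all rows of the expression table whose symbol starts with PCDHA, PCDHB or PCDHG, apart from 2 rows with pseudogene symbols, out of 55765 gene rows in all. The alpha cluster contributed 16 members, the beta cluster 18 and the gamma cluster 21. PCDHA14, PCDHB17 and PCDHB18 fit the rule by their symbols in the table but are pseudogenes in GENCODE release 29, which leaves 52 protein-coding members.

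RNA-seq was done on SK-NEP-1 cells, a line given as a Wilms tumor line, from kidney, in the labels. The labels conflict here: every title names this line, but a further field gives each sample a name of its own, up to SK-NEP-6, and the titles were followed. In 3 libraries the cells had received siEHMT2, a small interfering RNA against the histone H3 lysine 9 methyltransferase gene EHMT2, and in 3 libraries siNC, a control small interfering RNA. The question is how RNA levels differ between cells in which EHMT2 was targeted and control cells. The labels give neither time nor dose, nor whether libraries of a group stem from separate cultures, so p-values reflect only the spread among these samples, possibly a technical one. Values are FPKM, fragments per kilobase of transcript scaled to the mapped fragments of the library, so levels of different genes are compared per length. In bulk RNA, fewer cells that express a gene and less RNA per cell cannot be told apart.

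In neurons, each cell expresses its own choice of clustered protocadherin isoforms, and matching isoforms on 2 membranes bind each other, which is known to serve self-recognition of neurites. An alpha or gamma isoform joins its own variable first exon, which encodes the extracellular cadherin repeats and the membrane span, to constant exons common to its cluster, whereas a beta isoform comes from 1 variable exon and has no constant part. Each variable exon has its own promoter. Most of these promoters hold a conserved element with a CGCT core that the insulator protein CTCF binds, and DNA methylation and histone H3 lysine 9 methylation are known to keep unchosen promoters silent. The C-type isoforms (PCDHAC1, PCDHAC2, PCDHGC3, PCDHGC4 and PCDHGC5) stand at the end of the alpha and gamma clusters and are known in mouse neurons to be used more uniformly than the others.

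Beyond the symbol, most of the promoters are known to share this conserved element. Windows around a CGCT match are shown here for members to which the levels and comparisons below refer. A match marks the letters and need not be the element. Promoters were taken from RefSeq (build GRCh38.p14, plus strand, another build than the files'), 250 bases before to 50 after each start site, and 46 of the 55 members matched. PCDHA3, PCDHA13, PCDHA14, PCDHB6, PCDHB11, PCDHB17, PCDHB18, PCDHGA12 and PCDHGC5 had no entry in that table. Each sequence of 40 bases below runs 5′ to 3′ on the strand of the gene, with a CGCT match in capitals. The motifs were chosen after the member promoters had been read, so their counts are descriptions. In the alpha cluster the core ended a run that reads ATGTCGCT in 9 of 13 promoters (69.2%), against 67 of the promoters of all 27305 genes (0.245%), counted on either strand.
PCDHA2, chr5:140794777-140794816: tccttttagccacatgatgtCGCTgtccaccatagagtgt
PCDHA4, chr5:140806975-140807014: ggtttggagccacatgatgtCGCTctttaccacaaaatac
PCDHA7, chr5:140834168-140834207: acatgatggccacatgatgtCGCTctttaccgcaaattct
PCDHA10, chr5:140855837-140855876: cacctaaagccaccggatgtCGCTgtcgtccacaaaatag

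In the beta cluster the core ended the run GGTGGCGCT in 13 of 14 promoters (92.9%), against 143 of all promoters (0.524%). PCDHB2 and PCDHB16 are among the most abundant beta members, and PCDHB7, PCDHB12 and PCDHB13 are members whose groups did not overlap.
PCDHB2, chr5:141094540-141094579: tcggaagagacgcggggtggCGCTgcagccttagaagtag
PCDHB7, chr5:141172562-141172601: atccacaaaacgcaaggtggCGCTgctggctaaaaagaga
PCDHB12, chr5:141208639-141208678: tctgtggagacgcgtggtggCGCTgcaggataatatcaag
PCDHB13, chr5:141213861-141213900: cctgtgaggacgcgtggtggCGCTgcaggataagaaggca
PCDHB16, chr5:141182306-141182345: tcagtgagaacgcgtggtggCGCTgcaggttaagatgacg

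In the gamma cluster the run GCGCCGCTG was found in 9 of 19 promoters (47.4%), against 341 of all promoters (1.25%). PCDHGA9 carried it, whereas the 3 most abundant gamma members, PCDHGB7, PCDHGC3 and PCDHGC4, did not. In PCDHGB7 the capitals mark the only CGCT of its promoter on the strand of the gene. Whether the windows of these 3 members hold the conserved element was not tested.
PCDHGA9, chr5:141402710-141402749: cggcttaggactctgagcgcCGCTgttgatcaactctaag
PCDHGB7, chr5:141417603-141417642: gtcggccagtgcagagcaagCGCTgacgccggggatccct
PCDHGC3, chr5:141475876-141475915: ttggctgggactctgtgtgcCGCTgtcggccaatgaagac
PCDHGC4, chr5:141484948-141484987: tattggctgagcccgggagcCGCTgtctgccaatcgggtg

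The bare core is common: CGCT was present on either strand in 45 of 46 member promoters (97.8%) and in 18944 of all 27305 (69.4%), and each of the longer runs contains it. PCDHGC3, by far the most abundant member, held 5 copies of CGCT in the 250 bases before its start site, more than any other of the 46 promoters on the strand of the gene, and these bases are given in full. A match is a description of these letters and no measure of CTCF binding.
PCDHGC3, chr5:141475716-141475965: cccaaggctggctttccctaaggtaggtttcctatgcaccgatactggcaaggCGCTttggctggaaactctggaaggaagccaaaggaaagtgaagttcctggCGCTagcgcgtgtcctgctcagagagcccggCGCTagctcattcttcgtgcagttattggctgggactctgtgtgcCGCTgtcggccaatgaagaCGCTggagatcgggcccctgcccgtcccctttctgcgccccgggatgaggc

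EHMT2 itself was at 7.61, 8.26 and 16.2 FPKM in the siEHMT2 libraries, against 27.5, 27.2 and 22.7 in the siNC libraries, so the groups did not overlap, but EHMT2 was not called (limma adjusted p = 0.0609). The summed FPKM ranged from 244702 to 272271 per library, and the absolute depth is unknown. siEHMT2 replicate 3 had the highest EHMT2 level of the siEHMT2 libraries and stood apart in GC content: the Spearman rho between its deviation from the gene means and transcript GC was 0.573 across genes, against −0.339 to 0.111 in the other libraries. The 2 replicates numbered 3 lay at the ends of the main axis of variation, which held 38.6% of the variance. Of the labelled tissue's markers, the nephron progenitor genes SIX2 and PAX2 were near 0 (0.180 and 0.0838 FPKM on average in siEHMT2, 0.148 and 0.0735 in siNC), while WT1 was at 1.34 FPKM in siEHMT2 and 1.04 in siNC, and 5 of the 11 markers in that list reached 1 FPKM. Of 11 Ewing sarcoma markers 10 reached 1 FPKM, summing to 576 to 633 FPKM in siEHMT2 libraries and 778 to 805 in siNC libraries, with NKX2-2 at 120 FPKM in siEHMT2 and 126 in siNC. Most of the gap between these sums lay in CCND1, which encodes cyclin D1 and was the only gene called in any list read here (222 ± 10.1 FPKM in siEHMT2 and 374 ± 12.4 in siNC (SD, n = 3 each), log2 fold change −0.75, limma adjusted p = 0.0287). The label and these markers are thus at odds, and the cells are called SK-NEP-1 here without a tumor type. Summed markers of leukocytes were at most 0.554 FPKM in any library, and MS4A1 was listed at 0.

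Most clustered protocadherins were barely present in this line, and a few isoforms carried the signal. Of the 55 members, 8 averaged 1 FPKM or more across the 6 libraries, 44 lay from 0.05 to under 1 FPKM, and 3 were lower. PCDHA14 and PCDHB1 were listed at 0 in every library, and PCDHGA8 averaged 0.0197 FPKM. The mean levels of all members summed to 44.7 FPKM, of which PCDHGC3 alone made up 28.3%. The median member above 0 was at 0.429 FPKM.

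The gamma cluster was the most abundant and the most uneven. PCDHGC3, a C-type isoform, was at 12.6 FPKM on average, more than 70.9% of the 12859 genes with a mean of at least 1 FPKM, and took 53.8% of the gamma sum. It was followed by PCDHGB7 at 3.69 FPKM and PCDHGC4, a C-type isoform known in mouse to keep interneurons alive, at 2.95 FPKM. These 3 members together held 82.1% of the gamma sum. The C-type PCDHGC5, at the end of the cluster next to PCDHGC4, was at 0.574 FPKM, in the same range as PCDHGA11 at 0.593 FPKM. The other 16 gamma members averaged between 0.0197 FPKM (PCDHGA8) and 0.441 FPKM (PCDHGA12). Among the C-type isoforms of the cluster, PCDHGC3 and PCDHGC4 ranked 1 and 3 by level and PCDHGC5 ranked 5.

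The beta cluster was carried by 4 isoforms that are not neighbours. PCDHB2 averaged 3.05 FPKM, PCDHB11 2.65, PCDHB6 2.12 and PCDHB16 1.27, and together they held 61.8% of the beta sum. They stand at positions 2, 13, 6 and 10 along the cluster, each next to members at much lower levels. PCDHB16 lies between PCDHB8 at 0.1 FPKM and PCDHB9 at 0.564 FPKM, and PCDHB6 lies between PCDHB5 at 0.0655 FPKM and the pseudogene PCDHB17 at 0.125 FPKM. PCDHB14 at 0.871 FPKM and PCDHB12 at 0.789 FPKM were just below the threshold of 1 FPKM, and PCDHA10 at 1.10 FPKM just above it.

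The alpha cluster was lowest and the most even. PCDHA10 led it with 1.10 FPKM, or 17.0% of the alpha sum, followed by PCDHA4 at 0.733, the C-type PCDHAC2 at 0.617 and PCDHA3 at 0.600 FPKM. From PCDHA2 to PCDHA10 all 9 neighbouring isoforms averaged 0.307 to 1.10 FPKM. PCDHA1 at one end and PCDHA11, PCDHA12, PCDHA13 and the C-type PCDHAC1 towards the other averaged 0.0910 to 0.135 FPKM. The pair of C-type isoforms thus differed, with PCDHAC1 at 0.122 FPKM.

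**Figure D1:**
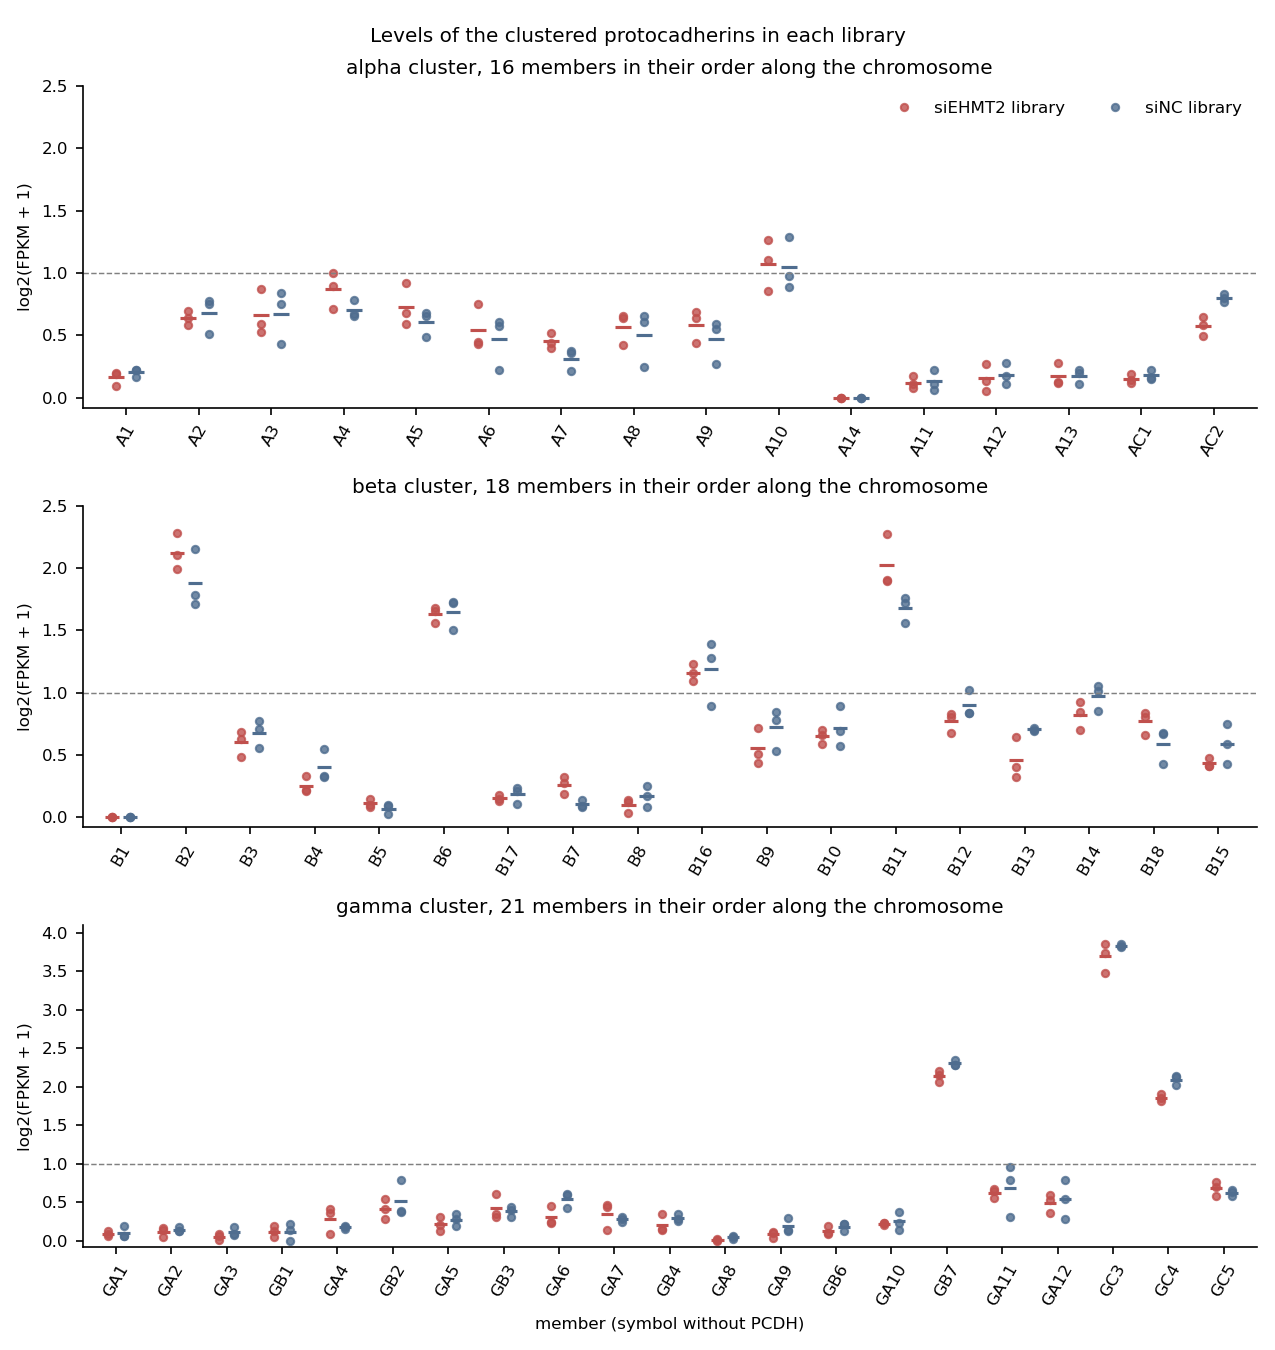
Level of each of the 55 members as log2(FPKM + 1), in chromosomal order within the alpha, beta and gamma clusters, with 3 siEHMT2 libraries (left, red) and 3 siNC libraries (right, blue) as points and short lines at the group means. The dashed line marks 1 FPKM. PCDHGC3, PCDHGB7 and PCDHGC4 stand out in the gamma cluster and PCDHB2, PCDHB11, PCDHB6 and PCDHB16 in the beta cluster, while PCDHA10 is the only alpha member whose mean reaches the line.

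By their ranges over the libraries, the highest members were separated only in part. These ranges cannot show an error common to all libraries, such as in dividing fragments from exons shared within a cluster. Over the 6 libraries PCDHGC3 ran from 10.1 to 13.5 FPKM, above every value of any other member. PCDHGB7 (3.19 to 4.08 FPKM), PCDHB2 (2.27 to 3.85), PCDHGC4 (2.52 to 3.40) and PCDHB11 (1.94 to 3.83) overlapped in their ranges and are not separated by them. PCDHB6, at 1.84 to 2.31 FPKM, overlapped with PCDHB2 and PCDHB11. It lay above PCDHB16, at 0.852 to 1.62 FPKM, whose range overlapped with that of PCDHA10.

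The exons that isoforms have in common differ by cluster. In GENCODE release 29, the longest spliced transcript of each protein-coding alpha member shares 2866 bases with other members (45.5% to 54.9% of its length), and that of each gamma member shares at least 2181 bases (45.6% to 50.4%). The longest transcript of each of the 16 protein-coding beta members overlaps no exon of another member on the chromosome. Shared bases are shared genome positions here, and similarity of sequence between members was not measured. Fragments from the shared alpha and gamma exons fit every isoform of the cluster, and the sources used here do not say how they were divided. Alpha and gamma levels are therefore uncertain per isoform, and members of 1 cluster are not independent measurements. Whether beta levels are more certain was not tested. Median transcript GC was 50.1% in alpha, 50.6% in beta and 53.8% in gamma members, against 50.2% over 11731 genes with a mean of at least 1 FPKM and a GC value.

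No clustered protocadherin differed between siEHMT2 and siNC at the threshold. The fit covered the 12859 genes with a mean of at least 1 FPKM, on log2(FPKM + 1) with limma, and called 71 of them (0.552%) at a Benjamini-Hochberg adjusted p under 0.05, with 44 (0.342%) higher and 27 (0.21%) lower in siEHMT2. Of the 8 members in this fit, 0 were called and 1, PCDHB11, had an unadjusted p under 0.05, which 18.8% of all genes in the fit had. Weights estimated per library ran from 4.64 for siEHMT2 replicate 2 down to 0.276 for siEHMT2 replicate 3. With these weights, limma called 3797 of the 12859 genes and 3 of the 8 members, PCDHB2, PCDHB11 and PCDHGC4. Of the 8 members, 3 were higher and 5 lower in siEHMT2, where 47.6% of all genes in the fit were lower. The members' median log2 fold change was −0.02, against 0.01 over all genes in the fit. The groups did not overlap for 3 of the 8, where they did not overlap for 26.3% of all genes in the fit. PCDHB11 had all siEHMT2 libraries above (14.6% of all genes), and PCDHGB7 and PCDHGC4 had them all below (11.7%).

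PCDHB11 had the largest difference among them. It was at 2.72, 3.83 and 2.74 FPKM in the siEHMT2 libraries, against 2.3, 2.39 and 1.94 FPKM in the siNC libraries. All siEHMT2 libraries lay above all siNC libraries, with siEHMT2 replicate 2 the highest. The log2 fold change was 0.34 ± 0.14 (SE; 95% interval 0.02 to 0.67, limma adjusted p = 0.242). It was 0.22 without siEHMT2 replicate 2, and 0.28 to 0.41 without any 1 of the other libraries. PCDHB2, the most abundant beta isoform, was at 3.30, 3.85 and 2.98 FPKM in siEHMT2, against 2.27, 3.44 and 2.44 FPKM in siNC. Its groups overlapped through siNC replicate 2, and its log2 fold change was 0.24 ± 0.15 (95% interval −0.10 to 0.59, limma adjusted p = 0.416). It was 0.38 without siNC replicate 2 and 0.16 without siNC replicate 1.

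The other beta members in the fit were close to even. PCDHB6 was at 2.16, 2.2 and 1.94 FPKM in siEHMT2, against 2.28, 2.31 and 1.84 FPKM in siNC (log2 fold change −0.02, 95% interval −0.30 to 0.26). PCDHB16 was at 1.13, 1.35 and 1.23 FPKM in siEHMT2, against 1.62, 1.43 and 0.852 FPKM in siNC (−0.03, 95% interval −0.39 to 0.33). The groups overlapped for both genes, and siNC replicate 3 was the lowest library for both. Either sign was obtained when single libraries were left out, with PCDHB16 at −0.17 without siNC replicate 3 and 0.07 without siNC replicate 1. PCDHA10 was at 0.806, 1.4 and 1.15 FPKM in siEHMT2, against 0.970, 1.44 and 0.846 FPKM in siNC, with a log2 fold change of 0.02 (95% interval −0.35 to 0.40, limma adjusted p = 0.955). Its sign too depended on single libraries.

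The 3 gamma members in the fit were lower on average in siEHMT2. PCDHGC4 was at 2.76, 2.52 and 2.61 FPKM in the siEHMT2 libraries, against 3.40, 3.05 and 3.36 FPKM in the siNC libraries. The siEHMT2 values all lay under the siNC values, and the log2 fold change of −0.23 ± 0.11 (95% interval −0.48 to 0.01) had a limma adjusted p of 0.285. PCDHGB7 was at 3.46, 3.64 and 3.19 FPKM in siEHMT2, against 3.87, 4.08 and 3.89 FPKM in siNC. Its groups did not overlap either (log2 fold change −0.16 ± 0.10, 95% interval −0.40 to 0.08, limma adjusted p = 0.442). PCDHGC3 was at 10.1, 13.5 and 12.4 FPKM in siEHMT2, against 13.1, 13.2 and 13.4 FPKM in siNC. The siNC libraries were tightly grouped, and siEHMT2 replicate 2 lay above them while siEHMT2 replicate 1 was lowest. The log2 fold change was −0.14 ± 0.12 (95% interval −0.40 to 0.13, limma adjusted p = 0.561) and −0.03 without siEHMT2 replicate 1. After correction for transcript GC the log2 fold changes were −0.33 for PCDHGC4, −0.23 for PCDHGB7 and −0.23 for PCDHGC3, none of them called. These 3 members and PCDHB11, 4 of 8, had an unadjusted limma p under 0.05 in that fit, as had 2130 of its 11731 genes.

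**Figure D2:**
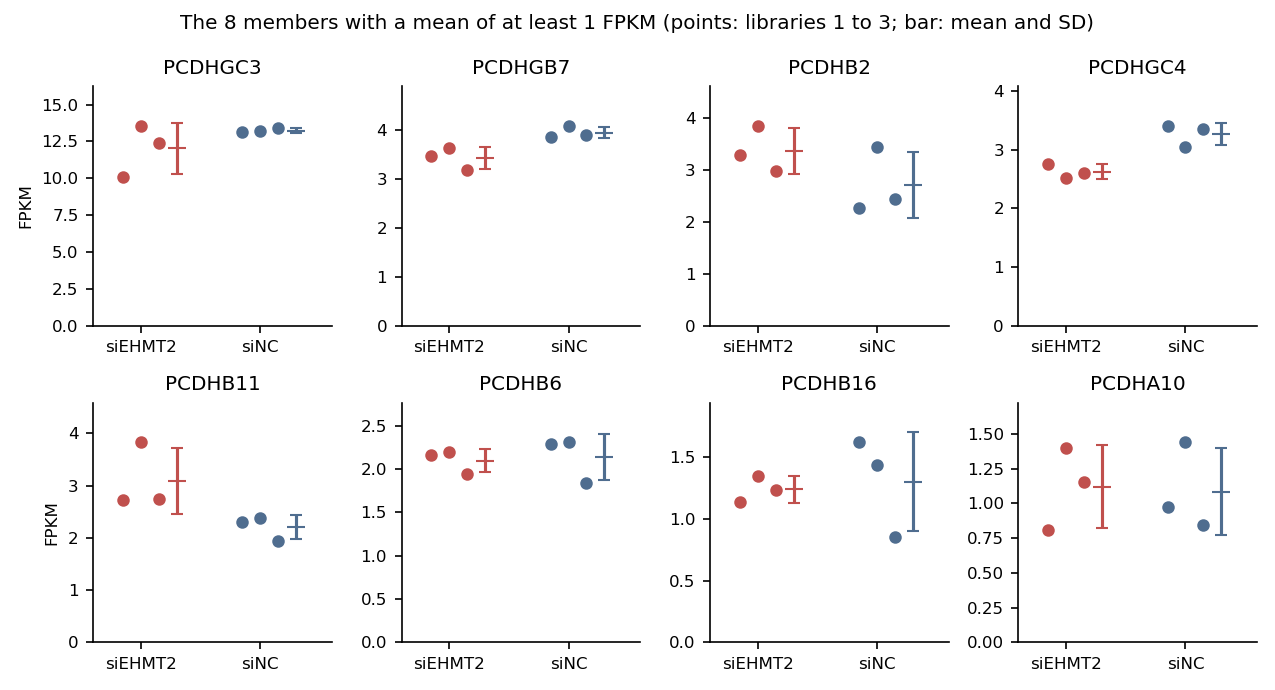
FPKM of the 8 members with a mean of at least 1 FPKM in the 3 siEHMT2 libraries (left) and the 3 siNC libraries (right), with the mean and SD of each group beside the points; axes start at 0 and differ between panels. The groups do not overlap for PCDHB11 (higher in siEHMT2), PCDHGB7 and PCDHGC4 (both lower in siEHMT2).

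**Figure D3:**
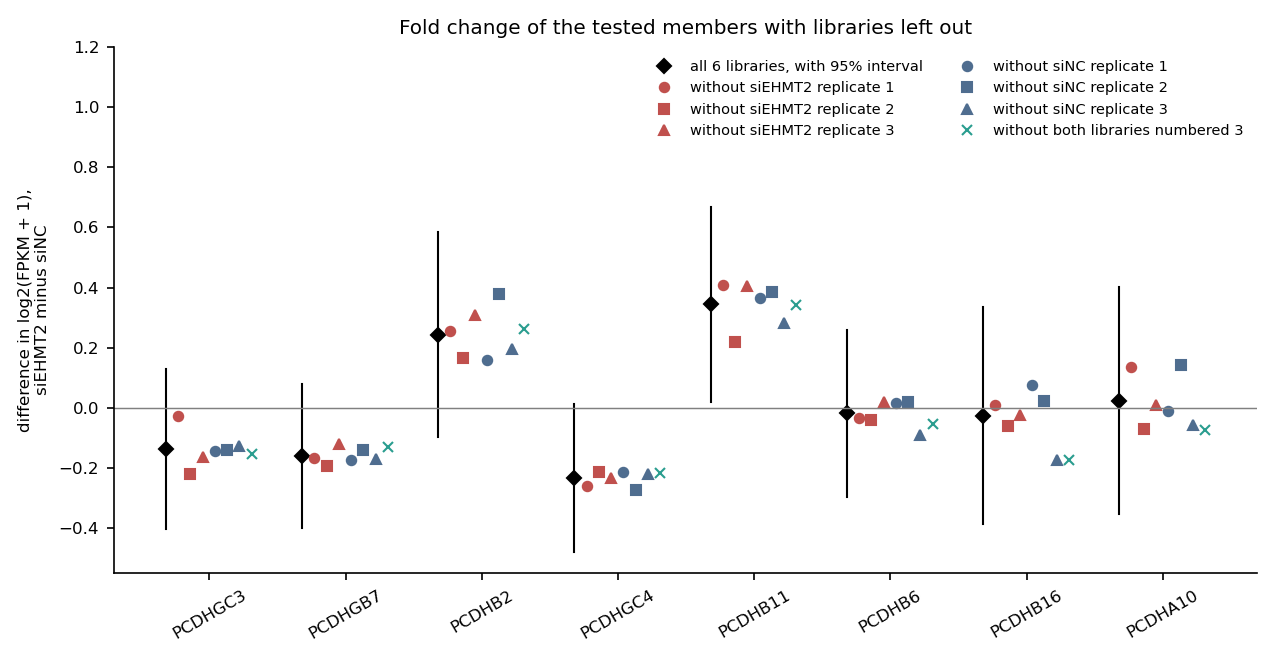
Difference in log2(FPKM + 1) between siEHMT2 and siNC for the 8 members, with the 95% interval of the fit over all 6 libraries (diamond and line) and the value with libraries left out (other symbols). PCDHB11 and PCDHB2 stay above 0 and PCDHGC3, PCDHGB7 and PCDHGC4 below 0 in each of these fits, whereas PCDHB6, PCDHB16 and PCDHA10 take either sign.

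Summed over a cluster, the groups were separated only in gamma. No sum was tested, and among single genes in the fit the groups did not overlap for 26.3%. The gamma sum was 19.6, 23.9 and 22.6 FPKM in the siEHMT2 libraries, against 25.1, 25.1 and 24.7 FPKM in the siNC libraries, or 22.0 ± 2.19 against 25.0 ± 0.262 FPKM (SD, n = 3 each). PCDHGC3 took 51.7% to 56.8% of the gamma sum in siEHMT2 and 52.2% to 54.5% in siNC, with overlapping ranges. The beta sum was 13.9, 16.3 and 14.7 FPKM in siEHMT2, against 15.4, 16.1 and 12.0 FPKM in siNC. The alpha sum was 5.35, 7.31 and 7.32 FPKM in siEHMT2, against 6.99, 7.26 and 4.66 FPKM in siNC. In both the alpha and beta clusters siNC replicate 3 had the lowest sum, and without it the log2 ratio of group means was −0.10 for alpha and −0.07 for beta, against 0.08 and 0.05 with it. With any 1 library left out the ratio ran up to 0.21 for alpha (without siEHMT2 replicate 1; 0.19 without siNC replicate 2) and up to 0.13 for beta (without siNC replicate 2; −0.02 without siEHMT2 replicate 2), and beta was at −0.0062 with libraries rescaled to the same sum. Neither cluster thus had a firm direction. For gamma it was −0.18 with all libraries and −0.10 without siEHMT2 replicate 1, the lowest one.

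**Figure D4:**
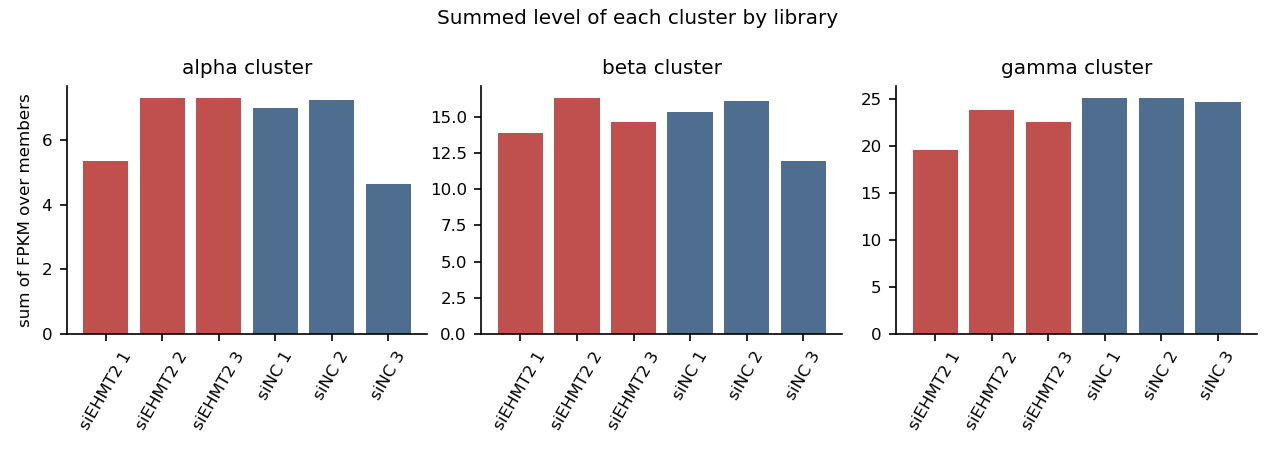
Sum of FPKM over the members of each cluster in each library, siEHMT2 in red and siNC in blue. In the gamma cluster the 3 siEHMT2 sums lie below the 3 siNC sums, while in the alpha and beta clusters siNC replicate 3 is the lowest library and the groups overlap.

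The library with the lowest level differed between the clusters. Of the 15 alpha members above 0, siNC replicate 3 was the lowest library for 7, among them the neighbours PCDHA5 to PCDHA9. PCDHA6, for example, was at 0.346, 0.366 and 0.685 FPKM in siEHMT2, against 0.524, 0.488 and 0.166 FPKM in siNC. For 7 of the 17 beta members above 0 the same library was lowest, and siEHMT2 replicate 1 was lowest for 5. In the gamma cluster siEHMT2 replicate 1 was lowest for 8 of 21 members, siEHMT2 replicate 2 for 6 and siNC replicate 3 for 2. Among all 23144 genes with a mean of at least 0.05 FPKM, siEHMT2 replicate 1 was lowest for 14.1%, siEHMT2 replicate 2 for 9.37% and siNC replicate 3 for 20.1%. Members of a cluster that share exons are not independent, so the counts are descriptions.

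The 44 members from 0.05 to under 1 FPKM were outside the main fit, and their values are given as descriptions. Their mean was lower in siEHMT2 for 30 (68.2%), where this held for 47.5% of all 10285 genes in this range. By cluster, 7 of 14 alpha, 10 of 13 beta and 13 of 17 gamma members were lower. The groups did not overlap for 6 of the 44 (13.6%), against 14.2% of all genes in this range, with 2 above (7.89% of all genes in this range) and 4 below (6.3%). Separation of the groups was thus about as frequent as among all genes of this level, while more members than not had a lower mean in siEHMT2. In a limma fit without the filter on low values, 0 of 32326 genes and 0 members were called, 3641 genes (11.3%) had an unadjusted p under 0.05, and the 3 members among them were PCDHB7, PCDHGA6 and PCDHGC4.

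PCDHAC2, the C-type alpha isoform next to the constant exons, was at 0.569, 0.411 and 0.502 FPKM in siEHMT2, against 0.776, 0.701 and 0.743 FPKM in siNC. The siNC libraries were closely grouped and all above the siEHMT2 libraries, with a ratio of means of 0.668. PCDHB13 was at 0.327, 0.253 and 0.559 FPKM in siEHMT2, against 0.618, 0.629 and 0.645 FPKM in siNC, a ratio of 0.602. PCDHB12 had a ratio of 0.817 and PCDHGA9 of 0.423, both with all siEHMT2 libraries below all siNC libraries. The remaining C-type isoforms overlapped between the groups: PCDHGC5 was at 0.496, 0.694 and 0.627 FPKM in siEHMT2 and 0.497, 0.575 and 0.557 FPKM in siNC, and PCDHAC1 at 0.104, 0.0867 and 0.141 FPKM in siEHMT2 and 0.113, 0.168 and 0.118 FPKM in siNC.

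PCDHB7 and PCDHA7 were the 2 low members with all siEHMT2 libraries above all siNC libraries. PCDHB7 was at 0.212, 0.137 and 0.248 FPKM in siEHMT2, against 0.0993, 0.0673 and 0.0582 FPKM in siNC, a ratio of means of 2.66 between low levels. Its adjusted p in the limma fit without the filter was 0.275. PCDHA7 was at 0.315, 0.356 and 0.436 FPKM in siEHMT2, against 0.294, 0.279 and 0.160 FPKM in siNC, a ratio of 1.51. PCDHA4 was at 0.642, 1.00 and 0.863 FPKM in siEHMT2, against 0.725, 0.571 and 0.592 FPKM in siNC, with overlapping groups. PCDHA3 (0.444, 0.503 and 0.833 FPKM in siEHMT2, 0.686, 0.786 and 0.348 in siNC) and PCDHGA11 (0.472, 0.589 and 0.570 in siEHMT2, 0.734, 0.948 and 0.242 in siNC) overlapped too. Among the other members above 0, the ratio of means ran from 0.230 for PCDHGA8, at its very low level, to 1.74 for PCDHGA4.

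**Figure D5:**
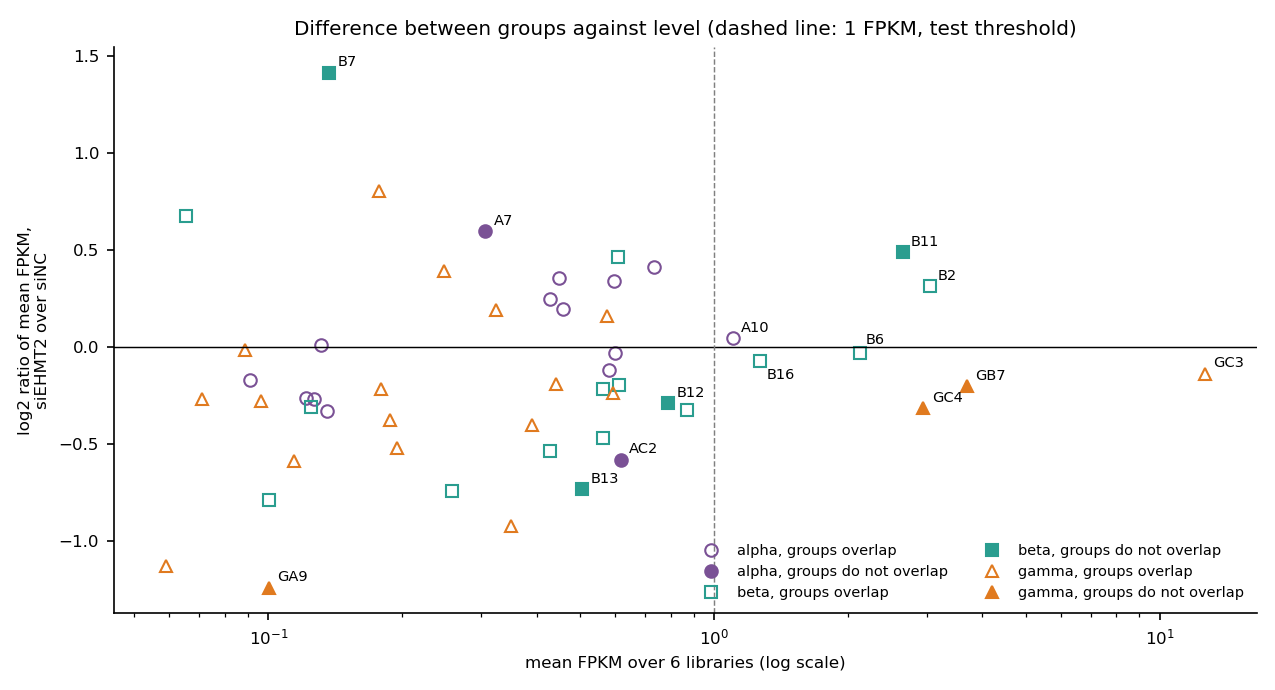
Log2 ratio of mean FPKM, siEHMT2 over siNC, against mean FPKM over the 6 libraries (log axis) for the 52 members with a mean of at least 0.05 FPKM; filled symbols have groups that do not overlap. Ratios scatter widely below 1 FPKM (dashed line), with PCDHB7 highest and PCDHGA9 lowest, and the gamma members right of the line all lie below 0.

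Genes that act on the clusters or with their proteins were read from the same fit, by lists whose members were chosen with earlier results of these data known. None of the 102 genes of these lists that reached the fit was called, against 0.552% of all genes. CTCF and the cohesin complex fold the clusters and bring promoters to distant enhancers. Of the 15 genes of that list, 2 were higher and 13 lower in siEHMT2 (median log2 fold change −0.16). For comparison with this and the lists below, 47.6% of all genes in the fit were lower, with a median of 0.01. CTCF was at 19.9, 20.4 and 18.2 FPKM in siEHMT2, against 19.6, 19.7 and 19.9 FPKM in siNC (−0.02). The smallest p in the list belonged to PDS5B, a regulator of cohesin on chromatin, at 16.3, 16.8 and 12.4 FPKM in siEHMT2, against 21.2, 22.5 and 21.2 FPKM in siNC (−0.50, limma adjusted p = 0.0967). It was followed by ESCO1, a cohesin acetyltransferase (−0.36, limma adjusted p = 0.212).

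Of the 28 genes linked to silencing of the clusters or to heterochromatin, 8 were higher and 20 lower, with a median of −0.19. For 8 of the 28, EHMT2 among them, all siEHMT2 libraries lay below all siNC libraries (11.7% of all genes in the fit). For 2 they lay above (14.6% of all genes). After EHMT2, the smallest p was that of CBX5, which encodes heterochromatin protein HP1 alpha (26.9, 31.4 and 24.3 FPKM in siEHMT2, 38.2, 41.4 and 36.2 in siNC, limma adjusted p = 0.0921). EHMT1, the partner of EHMT2, had a log2 fold change of 0.18 (limma adjusted p = 0.326). Among 24 intracellular partners, 10 were higher and 14 lower (median −0.05). BRK1, a subunit of the WAVE actin regulator, was at 53.4, 53.2 and 64.7 FPKM in siEHMT2, against 40.4, 38.5 and 39.7 FPKM in siNC (limma adjusted p = 0.0694). AXIN1, a scaffold of WNT signalling, had a log2 fold change of 0.44 (limma adjusted p = 0.0809).

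Neighbours on the chromosome and relatives in the superfamily were not called either. Of 13 genes around the clusters, 9 were higher and 4 lower (median 0.10). The smallest p belonged to HARS, a histidyl-tRNA synthetase gene (log2 fold change 0.33, limma adjusted p = 0.130), and RNF14 (−0.36, limma adjusted p = 0.132). Of the 12 protocadherins outside the clusters, 5 reached the fit, 3 of them higher and 2 lower. PCDH10 was at 8.27, 9.02 and 7.91 FPKM in siEHMT2, against 6.04, 5.88 and 5.14 FPKM in siNC, without overlap (0.49 ± 0.11, limma adjusted p = 0.0727). PCDH8 was at 1.52, 1.74 and 1.68 FPKM in siEHMT2, against 2.34, 1.94 and 2.39 FPKM in siNC (−0.28, limma adjusted p = 0.258). Among the FAT, dachsous and CELSR genes 4 were higher and 5 lower (median −0.05), with DCHS1 (−0.29) and CELSR3 (−0.24) first by p. Among classic cadherins and catenins 2 were higher and 6 lower (median −0.09), with CTNNB1, which encodes beta-catenin (−0.29, limma adjusted p = 0.166), and CDH3 (−0.41, limma adjusted p = 0.206) first. Markers of neurons, the cell type in which the clusters are best known, summed to 60.1 to 69.0 FPKM in siEHMT2 libraries and 56.7 to 68.1 in siNC libraries, with 2 of 7 higher and 5 lower and none called. TUBB3 made up most of that sum (48.0 FPKM in siEHMT2, 39.3 in siNC). The list's median log2 fold change was −0.34, against 0.01 over all genes in the fit. For 3 of the 7, SNAP25 and DCX among them, all siEHMT2 libraries lay below all siNC libraries (11.7% of all genes in the fit). TUBB3 had them all above (14.6% of all genes). The part of these markers in the protocadherin levels was not tested.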

How the data were processed

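RNA levels were measured by RNA-seq of total RNA (NEBNext Ultra kit, per the labels' protocols; strand handling is not stated). The table the authors deposited holds FPKM per gene and library, per the file headers. The submitters' processing notes list, without roles, the build hg19 and fastp, HISAT2 (2.2.1), SAMtools (1.4.1) and StringTie (2.2.0). Neither the annotation nor how transcripts were combined per gene is given in those notes. No whole reads could be recovered from these values, so count models were not applied. Groups follow the sample titles, which all name SK-NEP-1, although the cell line field gives each sample a different name.

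The fit used limma 3.58.1 (R 4.3.3) on log2(FPKM + 1) of the 12859 genes averaging 1 FPKM or more, two-sided, with a mean-variance trend, no covariates and Benjamini-Hochberg adjustment over all of them. The pseudocount understates changes of low genes. An exact permutation of 3 against 3 libraries cannot give a p under 0.1. Members, lists and motifs were chosen with earlier results of these data known. Members described in each library were those in the fit, the 4 highest of each cluster and the C-type isoforms, and from each list the 2 with the smallest p; members named for groups that do not overlap, PCDHA6 and threshold or positional neighbours were chosen after their values were seen. The fit was first tested on simulated data with independent noise per gene and no effect of single libraries. That test therefore does not cover the differences between libraries seen here. The fit was repeated with other filters, pseudocounts and scalings, and without the trend. It was also repeated with library weights, GC correction or a replicate block, and with libraries left out. GC content and exons came from GENCODE release 29 and promoters from RefSeq, on another build, matched by symbol. Tables and figures were made with Python 3.11.15, pandas 2.3.3 and matplotlib 3.10.9.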

Additional observations from a re-analysis of the deposited data

How the results depend on the processing

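No clustered protocadherin was called under any alternative run except library weights, where 3 of 8 were. They were PCDHB11 (log2 fold change 0.49, limma adjusted p = 0.0101), PCDHB2 (0.38, 0.0380) and PCDHGC4 (−0.27, 0.0301). The weights were estimated from these same libraries. In that run siEHMT2 replicate 2 had a weight of 4.64, against 0.743 and 0.276 for siEHMT2 replicates 1 and 3. This replicate 2 was the highest of all libraries for PCDHB11 and PCDHB2 and the lowest for PCDHGC4. That run called 3797 of all 12859 genes and 38 of the 102 genes of the related lists. In the main fit the count over all genes was 71. It became 0 without the filter on low values, 25 with the filter at 0.5 FPKM, 31 with libraries rescaled to the same sum, 30 without a trend, and 0 to 172 with 1 library left out. Without both libraries numbered 3, chosen after the data were seen, it was 1890 of 12859 genes. Leaving both out called 18 of the 102 genes of the related lists and 0 of the 8 members. Genes of related lists called were 2 after GC correction and 0 to 2 with 1 library left out. The replicate block called 0 genes, also with GC correction (1845 and 1598 at an unadjusted p under 0.05), and no member. Whether the replicate numbers pair the libraries is not settled. Deviations of same-numbered libraries had correlations of −0.35, 0.09 and −0.39. These cannot decide it, because differently numbered libraries were not compared in the same way. The log2 fold changes that turned were those near 0. With 1 library left out, PCDHA10 ran from −0.070 to 0.14, PCDHB16 from −0.17 to 0.075 and PCDHB6 from −0.090 to 0.020. PCDHA10 was also −0.0031 with libraries rescaled to the same sum and −0.075 without both libraries numbered 3. The cause was not tested. The median over members ran from −0.11 to 0.02 with 1 library left out. Over all alternatives, 144 of 158 values of single members kept their sign and call. A filter of 2 FPKM leaves PCDHA10 and PCDHB16 without a value. Depth is unknown and limits the members below 1 FPKM most.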
